A study of Arabidopsis thaliana with 48 samples.

Results

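The transient DMBQ risers are 80 of the 33602 genes counted in Arabidopsis thaliana seedlings. They were selected on WT values: their RNA was higher in seedlings given the quinone DMBQ than in seedlings given its solvent DMSO after 0.5 h and 1 h, and at 6 h any rise was below a set limit. For every gene, counts were divided by the library's total and scaled to CPM, the usual depth-scaled unit, and R is the difference in log2(group mean CPM + 1), DMBQ minus DMSO, at one time. Members have a WT R of at least 0.35 at 0.5 h, at least 0.7 at 1 h and below 0.35 at 6 h. These WT values chose the members, so they are given as a description and carry no test. A further 136 genes met the first 2 limits with an R of 0.35 or more at 6 h, and are called sustained risers here. Of the 80, 78 passed the filter on low counts. The lectin receptor kinase gene LECRKA4.2 and the uncharacterized AT1G65484 did not pass.

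Seedlings were 7 days old, grown in liquid medium, and received 5 µM DMBQ or an equal volume of DMSO for 0, 0.5, 1 or 6 h. The genotypes were card1, which carries the card1-2 allele, and WT, which expresses the calcium reporter aequorin, both in the Col-0 ecotype. RNA came from whole seedlings, and card1 is represented by this 1 allele. Each of the 16 combinations of genotype, agent and time had 3 libraries, which makes 48. The labels do not say whether replicates are separate cultures, so p-values measure only the spread between libraries, which may be technical.

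DMBQ is a dimethoxybenzoquinone of the kind released from plant cell walls, and parasitic plants and other species sense such quinones. CARD1 is a leucine-rich repeat receptor kinase required for the rise of calcium that quinones cause. Quinones are also electrophiles and take part in redox cycling, and plants answer them with glutathione transferases, glycosyltransferases and the factors that control these. Salicylic acid signalling, which several members belong to, runs through the receptors NPR1, NPR3 and NPR4 and through TGA factors, which bind the core TGACG.

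Total gene counts ran from 4764682 to 14492051 per library. The CARD1 gene had 16.9 to 35.6 CPM in card1 libraries and 65.9 to 109 CPM in WT libraries, with no overlap. Summed photosynthesis genes, the shoot markers, lay between 31677 and 56785 CPM in all 48 libraries, and summed root markers between 286 and 580 CPM with no marker gene at 0. In card1 at 1 h the shoot sum was 43127 to 48331 CPM in DMBQ and 46473 to 48145 CPM in DMSO, and the root sum 286 to 333 CPM in DMBQ and 310 to 326 CPM in DMSO. At 0.5 h the root sum was 296 to 340 CPM in card1 DMBQ and 308 to 428 CPM in card1 DMSO, and in WT, where the values entered the rule, 289 to 320 CPM in DMBQ and 366 to 444 CPM in DMSO, with no overlap. Of the 16 root markers, EXPA7, an expansin of root hairs, was called lower in card1 DMBQ at 0.5 h (-1.08 ± 0.21, adjusted p 0.00584) and 1 h (-0.95 ± 0.21, adjusted p 0.00685), and PHO1, a phosphate exporter, higher at 6 h (0.37 ± 0.09, adjusted p 0.0336), by edgeR's quasi-likelihood test on the log2 scale. The part of these markers in the results was not tested. In bulk seedlings, fewer cells of a type and less RNA per cell cannot be told apart. For a check on transcript length, log2 levels were taken relative to each gene's mean over the 48 libraries. These relative levels fell with length in card1 DMSO 0 h replicates 1 and 2 (Spearman correlation across genes -0.511 to -0.494). They also fell in the WT DMBQ 0.5 h libraries (-0.429 to -0.389) and, less, in the WT DMSO 0.5 h libraries (-0.215 to -0.160). The other 40 libraries lay between -0.0833 and 0.173. Test values that rest on the 0 h pair are given with and without it, and the rule gave 73 genes, 71 of them members, after a correction for length.

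The 300 bases before the annotated start are shown for 5 of the 6 tested members with the largest WT R at 1 h, because they differ in the TGA core: NAC004 holds 5 matches, GRX480 and AT5G38710 hold 1 each, and AT5G07870 and ZF2 hold none. NAC004 encodes a NAC transcription factor and lies on chromosome 1, GRX480 encodes a glutaredoxin that binds TGA factors and also lies on chromosome 1, and AT5G07870 encodes an acyltransferase of the HXXXD type on chromosome 5. Sequences are from the RefSeq TAIR10.1 genome, read 5′ to 3′ on the strand of the gene, which is the minus strand for NAC004, GRX480 and ZF2 and the plus strand for the others. Capitals mark every match to the motifs searched, on either strand. The windows are chr1:436923-437222 for NAC004, chr1:10014257-10014556 for GRX480, chr5:2513492-2513791 for AT5G07870, chr5:15500826-15501125 for AT5G38710 and chr3:6804297-6804596 for ZF2.
NAC004: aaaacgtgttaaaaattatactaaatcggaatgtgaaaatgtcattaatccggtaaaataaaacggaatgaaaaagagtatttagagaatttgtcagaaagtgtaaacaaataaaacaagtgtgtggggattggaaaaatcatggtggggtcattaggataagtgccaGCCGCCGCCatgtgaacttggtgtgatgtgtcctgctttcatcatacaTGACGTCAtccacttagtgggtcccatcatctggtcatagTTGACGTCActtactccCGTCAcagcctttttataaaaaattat
GRX480: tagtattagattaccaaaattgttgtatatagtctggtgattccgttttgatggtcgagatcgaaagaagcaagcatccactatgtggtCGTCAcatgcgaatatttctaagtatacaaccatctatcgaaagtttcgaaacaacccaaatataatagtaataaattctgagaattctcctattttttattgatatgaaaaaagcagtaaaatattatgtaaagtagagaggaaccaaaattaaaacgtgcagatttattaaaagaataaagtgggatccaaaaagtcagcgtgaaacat
AT5G07870: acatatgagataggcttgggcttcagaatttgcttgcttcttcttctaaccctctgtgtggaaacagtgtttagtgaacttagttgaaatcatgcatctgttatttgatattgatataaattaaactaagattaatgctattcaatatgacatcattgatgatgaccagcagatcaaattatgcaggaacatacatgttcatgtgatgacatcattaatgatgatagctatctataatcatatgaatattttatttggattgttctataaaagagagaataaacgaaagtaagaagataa
AT5G38710: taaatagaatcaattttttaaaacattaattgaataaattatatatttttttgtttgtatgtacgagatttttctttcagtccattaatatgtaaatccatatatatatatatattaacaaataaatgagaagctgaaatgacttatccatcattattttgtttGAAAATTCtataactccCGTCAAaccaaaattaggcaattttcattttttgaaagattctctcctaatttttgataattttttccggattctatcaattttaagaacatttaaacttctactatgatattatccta
ZF2: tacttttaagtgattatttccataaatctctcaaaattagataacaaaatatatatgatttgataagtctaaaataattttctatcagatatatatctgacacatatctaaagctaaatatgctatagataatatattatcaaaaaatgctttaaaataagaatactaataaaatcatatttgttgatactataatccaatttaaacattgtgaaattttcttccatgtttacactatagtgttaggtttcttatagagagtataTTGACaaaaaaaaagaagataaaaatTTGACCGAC
The searched core TGACG, with its reverse CGTCA, stood in 46.2% of the 80 windows (37 genes), in 43.4% of the sustained risers and in 22% of the 19713 tested genes with a window. The W-box core TTGAC, bound by WRKY factors, stood in 65% of the members, 69.1% of the sustained risers and 50.3% of tested genes. TGACG and TTGAC overlap in TTGACG, which was in 20%, 14% and 8.38% of these sets. The G-box CACGTG was in 13.8% of members, 6.62% of sustained risers and 7.88% of tested genes. In the same order, the GCC box GCCGCC was in 1.25%, 4.41% and 2.44%, and the CRT core CCGAC in 13.8%, 15.4% and 14.8%. A match is a run of letters and not a shown binding site, and the shares were not tested.

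In both genotypes the median R of the members was highest at 1 h and near 0 at 6 h. Over all 80 it was 0.39 in card1 and 0.62 in WT at 0.5 h, then 0.71 in card1 and 0.93 in WT at 1 h. At 6 h it was 0.09 in card1 and 0.13 in WT, and at 0 h it was 0.01 in card1 and 0.07 in WT. The WT values from 0.5 h on were fixed by the rule, so a smaller median in card1 is a description: 67 of the 80 had a larger R at 1 h in WT. Of the 50 genes that meet the same rule in card1, 20 had the larger R at 1 h in card1. The median R of those 50 at 1 h was 0.96 in card1, whose values chose them, and 1.00 in WT, and this was not tested. In all, 24 genes met the rule in both genotypes, which is 30% of the members and 48% of the card1 genes. Of the members, 44 reached 0.35 in card1 at 0.5 h, 44 reached 0.7 at 1 h, and 66 were below 0.35 at 6 h. R at 6 h was still above 0 in 55 members in card1 and in 62 in WT.

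**Figure D1:**
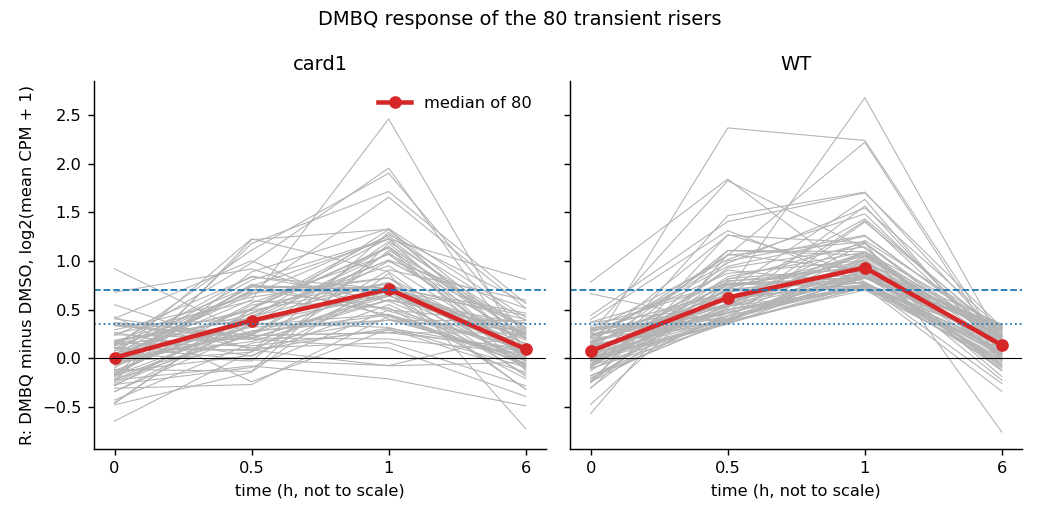
R, the DMBQ minus DMSO difference in log2(mean CPM + 1), of the 80 members in card1 (left) and WT (right) at 0, 0.5, 1 and 6 h. Grey lines are genes, the red line is the median (0.71 in card1 and 0.93 in WT at 1 h), and the dotted and dashed lines mark 0.35 and 0.7. The WT values at 0.5, 1 and 6 h chose the genes.

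The limits of the rule pass through a continuous range of R values. Just inside were AT3G13310 at 0.351 and AT5G66650 at 0.360 at 0.5 h, and just outside AT5G51500 at 0.343 and AT3G09020 at 0.326. At 1 h GH3.3 at 0.701 and AT1G65484 at 0.710 were inside, and ADT5 and APK2B, each at 0.691, were outside. At 6 h AT5G39670 and RLP52, each at 0.349, were inside, and MYB84 at 0.362 and MYB61 at 0.369 were outside.

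The card1 libraries did not enter the rule, so they were tested. In card1 at 1 h, 30 members were called higher in DMBQ and 0 lower by edgeR's quasi-likelihood test at an adjusted p under 0.05, against 0.978% of all 19839 tested genes called higher and 0.207% lower. The median fitted log2 fold change was 0.92 over the 78 tested members and 0.00 over all tested genes. At 0.5 h, 4 members were called higher and 0 lower, against 0.136% and 0.0151% of tested genes. That count was 1 without card1 DMSO 0.5 h replicate 1 or 2 or card1 DMBQ 0.5 h replicate 3, and 2 without card1 DMBQ 0.5 h replicate 1. At 6 h, 0 members were called in either direction, against 0.832% of tested genes called higher and 0.222% lower, and DESeq2 also called 0. There 9 of the 78 tested members had an unadjusted p under 0.05 by edgeR in the higher direction and 1 in the lower. Of the 19839 tested genes, 1019 did so in the higher direction and 1022 in the lower. All 3 DMBQ libraries lay above all 3 DMSO libraries for 30 members at 0.5 h, 55 at 1 h and 18 at 6 h, against 3.63%, 5.43% and 9.12% of tested genes. With the replicate number as a block, 7 members were called at 0.5 h in place of 4, and 37 at 1 h, all 30 among them. The card1 DMBQ 1 h replicate 3 was the highest of its group in 65 of 80 members, against 32.8% of tested genes, and 22 members were called at 1 h without it. At 0.5 h the card1 DMBQ replicate 3 was likewise the highest in 56 of 80 members, against 30.6% of tested genes.

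The members were grouped by function after their values were seen, and differences between the groups were not tested. Transcription factors of the NAC family numbered 6 among the members, and 4 of them were called higher in card1 at 1 h. Their median R was 0.99 in card1 and 1.18 in WT at 1 h, and 0.17 in card1 and 0.19 in WT at 6 h. NAC factors bind stress promoters, and NAC004 had the largest R of all members in WT. NAC004 had 3.28, 4.84 and 6.90 CPM in card1 DMBQ libraries at 1 h, against 0, 0.159 and 0.117 CPM in card1 DMSO libraries. The groups did not overlap, although the DMSO side rests on 2 reads in all. From 141 reads in DMBQ and 2 in DMSO, the ratio of summed reads, each divided by the total counts of its libraries, was 52.1 with a 95% exact Clopper-Pearson interval of 14.2 to 434, which covers counting error only. The fitted log2 fold change of NAC004 was 5.57 ± 0.60 (SE, n = 3 each, adjusted p 7.32e-09 by edgeR's quasi-likelihood test).
In WT at 1 h NAC004 had 3.61, 7.38 and 6.75 CPM in DMBQ, against 0.0834, 0 and 0.157 CPM in DMSO. By 6 h it had 0.242, 0.440 and 0.102 CPM in card1 DMBQ and 0.270, 0.263 and 0.138 CPM in card1 DMSO, so the groups overlapped and both rest on few reads.

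NAC053, a NAC factor that controls proteasome genes, was expressed at every time. In card1 at 1 h it had 26.7, 30.3 and 35.3 CPM in DMBQ, against 11.1, 14.6 and 14.4 CPM in DMSO. All DMBQ libraries were higher (1.20 ± 0.15, adjusted p 2.10e-07, edgeR's quasi-likelihood test). In WT at 1 h NAC053 had 34.8, 42.3 and 46.1 CPM in DMBQ, against 12.7, 14.6 and 16.5 CPM in DMSO. At 6 h in card1 it had 16.8, 16.2 and 16.4 CPM in DMBQ, against 11.1, 12.5 and 18.1 CPM in DMSO, and one DMSO library lay above all of them. NAC032, a stress NAC gene, had 5.98, 6.80 and 7.69 CPM in card1 DMBQ at 1 h, against 1.58, 2.06 and 3.39 CPM in card1 DMSO, a log2 fold change of 1.49 ± 0.30 (SE, adjusted p 0.00160, edgeR's quasi-likelihood test).
NAC032 had the smallest p of the members at 6 h in card1. It had 2.74, 3.63 and 3.96 CPM in DMBQ, against 0.810, 1.31 and 2.48 CPM in DMSO, and every DMBQ library was higher. Its log2 fold change there was 1.17 ± 0.34 (SE, adjusted p 0.0924, edgeR's quasi-likelihood test), which did not pass. It passed without card1 DMSO 6 h replicate 3 (1.61, adjusted p 0.0221 by edgeR). In WT at 6 h NAC032 had 1.88, 2.61 and 3.19 CPM in DMBQ, against 1.68, 1.97 and 2.53 CPM in DMSO, and the groups overlapped. ATAF1, a NAC factor of abscisic acid and wound responses, missed the threshold at 1 h in card1 with 47.2, 61.8 and 78.4 CPM in DMBQ, against 31.9, 35.9 and 45.8 CPM in DMSO (log2 fold change 0.71 ± 0.19, adjusted p 0.0565, edgeR's quasi-likelihood test). It passed with the replicate block, at an adjusted p of 0.0281 by edgeR, and NAC3, known as NAC055, did not pass (0.69 ± 0.28, adjusted p 0.508).

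**Figure D2:**
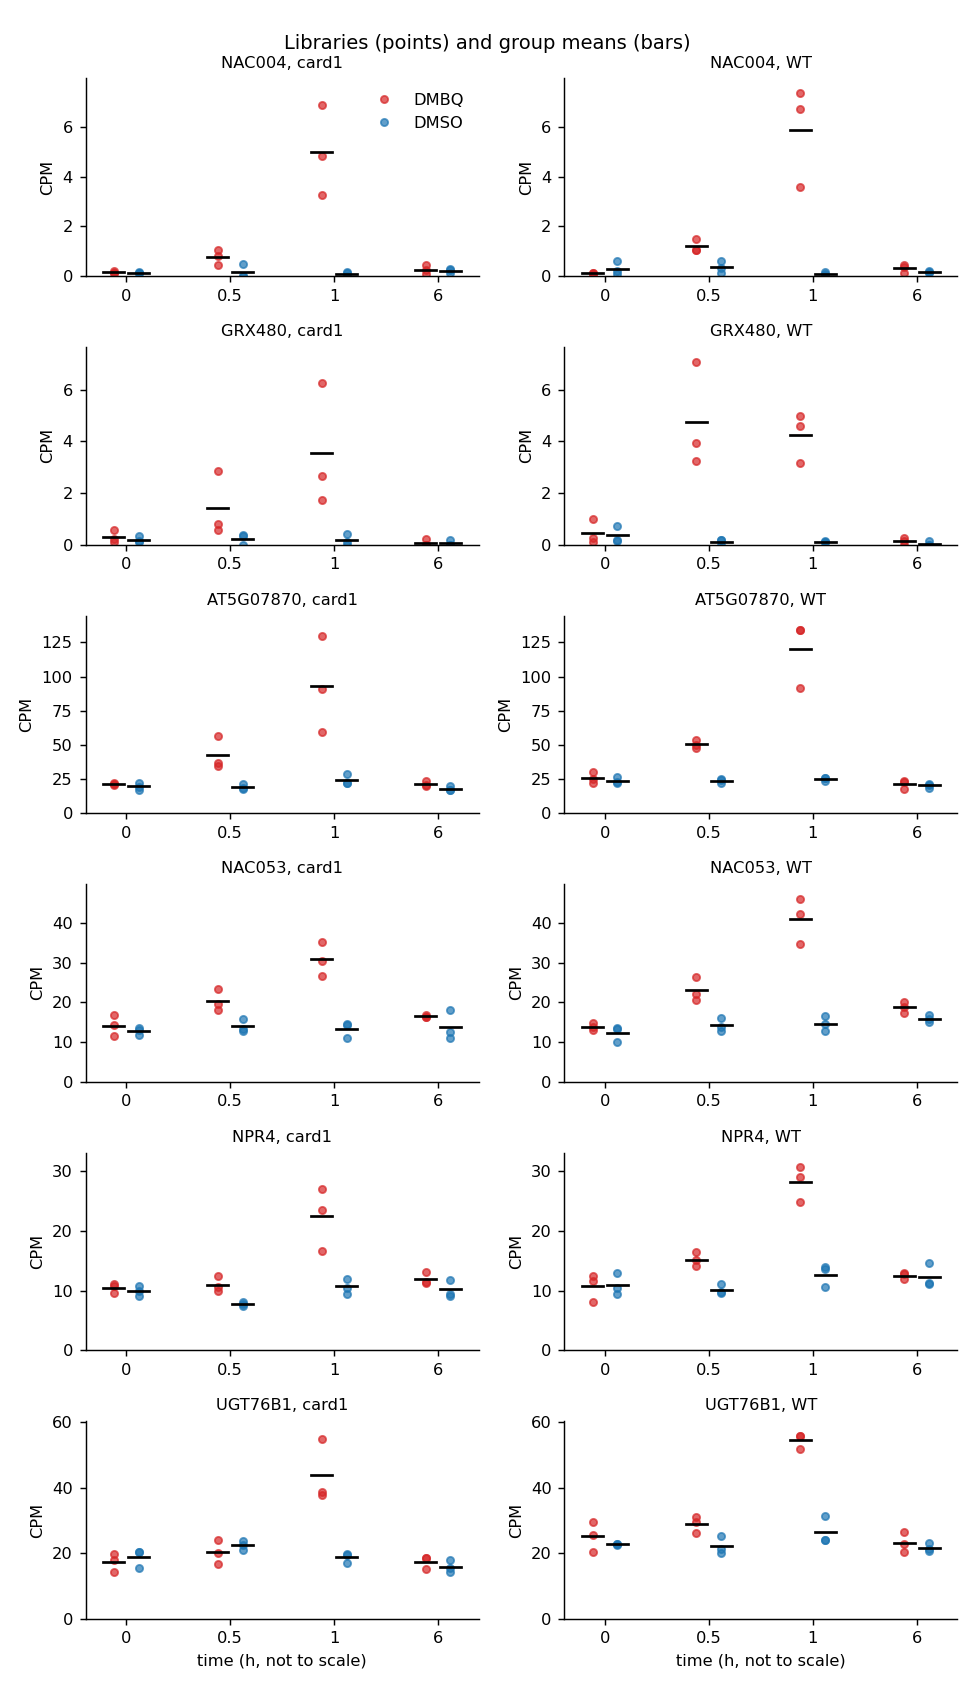
CPM of 6 members in each library (points) with group means (bars), card1 on the left and WT on the right, DMBQ in red and DMSO in blue, over 0, 0.5, 1 and 6 h. All 6 genes have 3 DMBQ libraries above 3 DMSO libraries at 1 h in both genotypes. NAC004 lies at or below 0.44 CPM in every library of 6 h.

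Of the 10 members that encode other transcription factors, 6 were called higher in card1 at 1 h. MYB63, a regulator of lignin genes, had 5.06, 5.19 and 4.43 CPM in card1 DMBQ at 1 h, against 0.659, 0.794 and 0.935 CPM in card1 DMSO. The groups stood far apart, with a log2 fold change of 2.59 ± 0.33 (SE, adjusted p 2.90e-07, edgeR's quasi-likelihood test). MYB63 was also called at 0.5 h, at 3.05, 1.74 and 0.914 CPM in card1 DMBQ against 0.322, 0.356 and 0.165 CPM in card1 DMSO (2.66 ± 0.50, adjusted p 0.00466, edgeR's quasi-likelihood test). That call was lost without card1 DMBQ 0.5 h replicate 1 (2.17, adjusted p 0.125 by edgeR). At 6 h in card1 MYB63 had 2.42, 1.98 and 2.24 CPM in DMBQ, against 1.62, 0.789 and 1.10 CPM in DMSO, and every DMBQ library was higher. The difference of 0.97 ± 0.33 did not pass (adjusted p 0.185, edgeR's quasi-likelihood test).
ZF2, a zinc finger repressor known as AZF2, had 4.70, 6.57 and 9.77 CPM in card1 DMBQ at 1 h, against 1.71, 2.54 and 2.34 CPM in card1 DMSO. No libraries overlapped, and the log2 fold change was 1.63 ± 0.38 (SE, adjusted p 0.0133, edgeR's quasi-likelihood test). The ZF2 call was lost without card1 DMBQ replicate 3 (1.32, adjusted p 0.165), card1 DMSO replicate 1 (1.48, adjusted p 0.131) or card1 DMSO replicate 3 (1.70, adjusted p 0.0600), all by edgeR. WRKY54, a WRKY factor of senescence and salicylic acid responses, had 3.56, 4.04 and 3.91 CPM in card1 DMBQ at 1 h, against 1.19, 0.635 and 0.935 CPM in card1 DMSO. It was called (2.01 ± 0.36, adjusted p 0.000314, edgeR's quasi-likelihood test), while its relative WRKY70 had 4.56, 4.5 and 6.51 CPM in DMBQ and 2.64, 2.54 and 3.62 CPM in DMSO and was not called (0.77 ± 0.44, adjusted p 0.900). ERF6, an ethylene response factor of oxidative stress, was not called at 1 h in card1 either, at 13.9, 16.1 and 22.5 CPM in DMBQ and 12, 7.62 and 16.3 CPM in DMSO (0.50 ± 0.32, adjusted p 0.999).

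The salicylic acid receptors and their partners numbered 4, namely NPR3, NPR4, NIMIN-2 and GRX480, and 3 were called higher in card1 at 1 h. Their median R was 1.05 in card1 and 1.17 in WT at 1 h, and 0.01 in card1 and 0.11 in WT at 6 h. NPR3 and NPR4 are salicylic acid receptors that act as transcriptional co-repressors. NPR4 had 16.7, 23.5 and 27.1 CPM in card1 DMBQ at 1 h, against 9.49, 10.5 and 12 CPM in card1 DMSO, and was higher in every DMBQ library (1.05 ± 0.16, adjusted p 1.16e-05, edgeR's quasi-likelihood test). In WT at 1 h NPR4 had 24.8, 30.7 and 29.0 CPM in DMBQ, against 10.6, 13.6 and 14.0 CPM in DMSO. At 6 h in card1 it had 11.2, 13.2 and 11.4 CPM in DMBQ, against 9.18, 11.8 and 9.51 CPM in DMSO, and the groups overlapped. NPR3 missed the threshold at 1 h in card1, with 41.5, 47.3 and 65.8 CPM in DMBQ and 27.5, 29.9 and 38.1 CPM in DMSO (0.68 ± 0.18, adjusted p 0.0599, edgeR's quasi-likelihood test), and passed with the replicate block (adjusted p 0.0355 by edgeR).
NIMIN-2, which binds NPR1, had 2.35, 1.04 and 2.21 CPM in card1 DMBQ at 1 h, against 0.264, 0.318 and 0.468 CPM in card1 DMSO. The groups did not overlap (2.38 ± 0.51, adjusted p 0.00448, edgeR's quasi-likelihood test), and the call was lost without card1 DMSO replicate 1 (2.21, adjusted p 0.0553) or card1 DMBQ replicate 1 (2.14, adjusted p 0.0616). GRX480 had 1.71, 2.65 and 6.25 CPM in card1 DMBQ at 1 h, against 0.395, 0 and 0.117 CPM in card1 DMSO (4.13 ± 0.77, adjusted p 0.000720, edgeR's quasi-likelihood test). The difference was large beside low levels, with 4 reads in all in the DMSO libraries. Its card1 R was 0.98 at 0.5 h, where the DMBQ libraries held 4, 6 and 22 reads, and 1.95 at 1 h. The WT R of GRX480, which chose it, was 2.37 at 0.5 h and 2.24 at 1 h, and the genotypes were not compared by a test. SIB1, a sigma factor binding protein outside this group, had 1.35, 1.38 and 4.30 CPM in card1 DMBQ at 1 h, against 0.132, 0.318 and 0.818 CPM in card1 DMSO, and did not pass (2.27 ± 0.62, adjusted p 0.0534, edgeR's quasi-likelihood test), though it did with the replicate block (adjusted p 0.0110 by edgeR).

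Of the 11 members for conjugation, oxidation and transport, 7 were called higher in card1 at 1 h. AT5G07870 had 59.3, 90.6 and 130 CPM in card1 DMBQ at 1 h, against 22.0, 28.4 and 22.2 CPM in card1 DMSO. Its DMBQ libraries were all above its DMSO libraries (1.95 ± 0.20, adjusted p 1.97e-08, edgeR's quasi-likelihood test). In WT at 1 h it had 91.5, 134 and 134 CPM in DMBQ, against 23.4, 25.9 and 25.6 CPM in DMSO.
At 0.5 h in card1 AT5G07870 had 34.6, 36.7 and 56.4 CPM in DMBQ, against a range of 17.9 to 21.4 CPM in DMSO, and was called (1.18 ± 0.22, adjusted p 0.00539, edgeR's quasi-likelihood test). The 0.5 h call was lost without card1 DMSO replicate 1 (1.12, adjusted p 0.0764), card1 DMSO replicate 2 (1.14, adjusted p 0.0797) or card1 DMBQ replicate 3 (0.91, adjusted p 0.204), by edgeR. By 6 h AT5G07870 had 19.9, 20.4 and 23.8 CPM in card1 DMBQ, against 17.3, 17.0 and 19.6 CPM in card1 DMSO, close to its level at 0 h. Every DMBQ library was still higher at 6 h, but the fitted log2 fold change of 0.25 was not called.
AT1G05575, of unknown function, was also called at 0.5 h, at 3.49, 4.42 and 5.09 CPM in card1 DMBQ and 1.13, 1.54 and 1.15 CPM in card1 DMSO (1.75 ± 0.37, adjusted p 0.0228, edgeR's quasi-likelihood test). No libraries overlapped, but the call was lost without any one of card1 DMSO replicates 1 (1.66), 2 (1.94) and 3 (1.70) and card1 DMBQ replicates 2 (1.75) and 3 (1.61).
UGT76B1 encodes a glucosyltransferase of isoleucic acid and salicylic acid. At 1 h it had 38.8, 37.9 and 55.0 CPM in card1 DMBQ, against 17.1, 19.7 and 19.6 CPM in card1 DMSO (1.21 ± 0.15, adjusted p 2.10e-07, edgeR's quasi-likelihood test). At 0.5 h the groups overlapped in card1, at 20.2, 16.6 and 24.2 CPM in DMBQ and 23.7, 20.9 and 22.6 CPM in DMSO. AT2G36950, a protein of the heavy metal transport family, had 49.4, 55.0 and 65.5 CPM in card1 DMBQ at 1 h, against 32.4, 31.6 and 34.1 CPM in card1 DMSO (0.78 ± 0.12, adjusted p 2.12e-05, edgeR's quasi-likelihood test), and it was also called at 0.5 h (0.59 ± 0.13, adjusted p 0.0272). The AT2G36950 call of 0.5 h was lost without any one of card1 DMSO replicates 1 (0.53) and 2 (0.54) and card1 DMBQ replicates 1 (0.60) and 3 (0.53).
OCT5, an organic cation transporter, fell in card1 DMSO at 1 h against 0 h (-0.94 ± 0.27, adjusted p 0.00857, edgeR's quasi-likelihood test), and without card1 DMSO 0 h replicates 1 and 2 it did so too (-1.26, adjusted p 0.0233 by edgeR). That call was lost with the DMBQ 0 h libraries as the 0 h level (-0.64, adjusted p 0.111 by edgeR) or without card1 DMSO 1 h replicate 3 (-0.73, adjusted p 0.0840 by edgeR). It had 6.84, 7.84 and 10.4 CPM in card1 DMBQ at 1 h, against 3.29, 5.56 and 2.69 CPM in card1 DMSO (1.13 ± 0.27, adjusted p 0.0141, edgeR's quasi-likelihood test). Without card1 DMBQ replicate 3 (0.94), card1 DMSO replicate 1 (1.05) or card1 DMSO replicate 3 (0.92) it was not called. UGT74E2, a glucosyltransferase of indole butyric acid, varied widely between replicates at 1 h in card1, at 5.27, 2.31 and 13.4 CPM in DMBQ and 1.45, 1.59 and 3.74 CPM in DMSO, and was not called (1.52 ± 0.56, adjusted p 0.385, edgeR's quasi-likelihood test). IGMT3, of the indole glucosinolate methyltransferases, has close tandem relatives, and reads without a unique alignment were left out, so its count is uncertain. It had 25.5, 22.6 and 22.9 CPM in card1 DMBQ at 1 h, against 10.5, 8.58 and 8.54 CPM in card1 DMSO (1.36 ± 0.26, adjusted p 0.00177, edgeR's quasi-likelihood test).

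Of the 8 members for carbon, nutrient or senescence functions, 4 were called higher in card1 at 1 h. SUE4, named for sulfate utilization, had 24.4, 23.9 and 38.0 CPM in card1 DMBQ at 1 h, against 8.83, 14.3 and 11.3 CPM in card1 DMSO (1.32 ± 0.17, adjusted p 4.27e-07, edgeR's quasi-likelihood test). SUFE2, a sulfur transfer protein of iron-sulfur assembly, had 8.48, 6.92 and 11.7 CPM in card1 DMBQ at 1 h, against 4.22, 3.34 and 2.57 CPM in card1 DMSO (1.41 ± 0.27, adjusted p 0.00107, edgeR's quasi-likelihood test). Both were higher in every DMBQ library. AT5G38710, annotated in RefSeq as a protein of the methylenetetrahydrofolate reductase family, had 15.7, 13.6 and 27.2 CPM in card1 DMBQ at 1 h, against 6.72, 7.46 and 8.30 CPM in card1 DMSO (1.31 ± 0.27, adjusted p 0.00327, edgeR's quasi-likelihood test), and was not called without card1 DMBQ replicate 3 (0.95, adjusted p 0.0960). GAT1_2.1, an amidotransferase, had the highest level of the members per transcript length, 131 TPM (transcripts scaled by length and depth) on average over the 48 libraries, and was not called at 1 h in card1, at 290, 282 and 425 CPM in DMBQ and 220, 180 and 215 CPM in DMSO (0.70 ± 0.27, adjusted p 0.452, edgeR's quasi-likelihood test).

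In card1 at 1 h 1 of 6 calcium genes and 1 of the 6 tested receptor and surface genes were called, as were 4 of the 27 tested members outside the named groups. The median R at 1 h was 0.55 in card1 and 0.80 in WT over the calcium genes, and 0.32 in card1 and 0.76 in WT over the receptor and surface genes. AT4G36820, a mitochondrial calcium uniporter, was the calcium gene called, at 4.2, 1.73 and 5.34 CPM in card1 DMBQ and 1.58, 0.635 and 1.29 CPM in card1 DMSO (1.64 ± 0.40, adjusted p 0.0178, edgeR's quasi-likelihood test). That call was lost without card1 DMBQ replicate 1 (1.54) or 3 (1.35) or card1 DMSO replicate 2 (1.38) or 3 (1.71). CML23, a calmodulin-like protein, had 3.06, 1.73 and 3.91 CPM in card1 DMBQ at 1 h and 1.58, 0.635 and 1.75 CPM in card1 DMSO, and overlapped in part (1.06 ± 0.34, adjusted p 0.163, edgeR's quasi-likelihood test). CRK10 and CRK41, cysteine-rich receptor-like kinases, differed in card1 at 1 h by 0.18 ± 0.27 and 0.08 ± 0.40 on the log2 scale, and neither was called. Both turned negative without card1 DMBQ 1 h replicate 3 (CRK10 -0.11, CRK41 -0.22) or without card1 DMSO 1 h replicate 1 (CRK10 -0.02, CRK41 -0.18). CRK41 had 6.63, 5.77 and 10.9 CPM in card1 DMBQ, against 4.35, 7.78 and 9.35 CPM in card1 DMSO, and the groups overlapped.

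**Figure D3:**
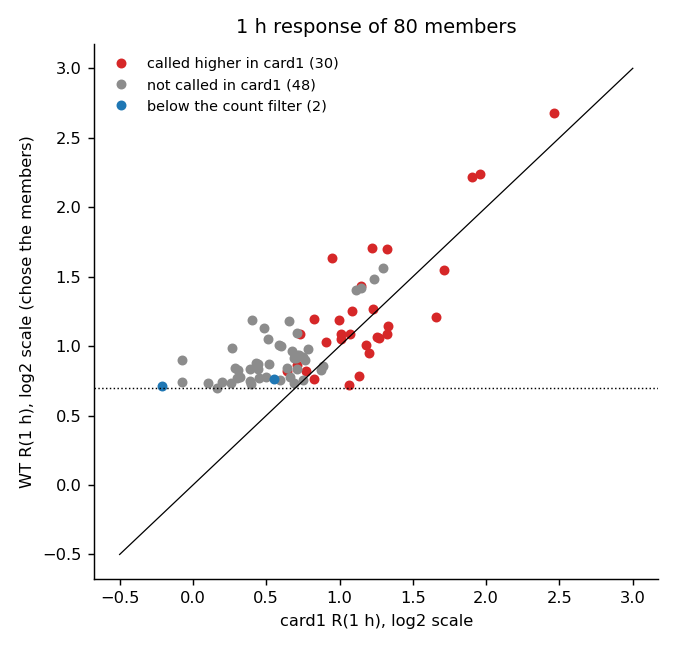
R at 1 h (log2 scale) of the 80 members in card1 (horizontal) and WT (vertical), with the line of equal values, and the WT limit of 0.7 dotted. The 30 members called higher in card1 by edgeR are red, the 48 not called grey and the 2 below the count filter blue. The WT axis chose the members.

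Across members, R at 1 h in WT and card1 had a Pearson correlation of 0.79 and a Spearman correlation of 0.71 over the 80 genes, which share libraries and the limits of the rule. Among members with at least 5 CPM in WT DMBQ at 1 h, the card1 R fell short of the WT R by most for OCT5, by 0.68 on the log2 scale, for AT2G25460 by 0.64 and for CRK41 by 0.63. It exceeded the WT R by most for AT4G36500, by 0.35, and for SUFE2 by 0.25. Because the WT contrast chose the members, these differences are not tests of the genotype.

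The fall after 1 h was tested in card1 as the 6 h response minus the 1 h response. It was called lower for 4 members and higher for 0, against 0.0706% and 0.0806% of tested genes. In the lower direction 26 of the 78 tested members had an unadjusted p under 0.05 by edgeR, against 482 of the 19839 tested genes. Of the 19839 tested genes 10219 had a fitted difference below 0, as did 92 of the 135 tested sustained risers. Among the members this difference was below 0 for 72 and above 0 for 6. AT5G45630, AT1G60750 and AT1G53625, at means of 0.69, 0.50 and 0.66 CPM over the 48 libraries, were among the latter. Their fitted log2 fold changes were 1.21, 2.08 and 1.02 at 1 h and 3.62, 2.52 and 1.20 at 6 h. The rest were AT5G39670, PMZ and AT5G23350, at means of 3.75, 2.30 and 15.1 CPM. For these the fitted values were 0.28, -0.09 and 0.39 at 1 h and 0.66, 0.50 and 0.48 at 6 h. The members called were AT5G07870 (-1.70 ± 0.30, adjusted p 0.00711), UGT76B1 (-1.06 ± 0.22, adjusted p 0.0204), AT2G36950 (-0.76 ± 0.17, adjusted p 0.0348) and NAC053 (-0.94 ± 0.21, adjusted p 0.0400), all by edgeR's quasi-likelihood test. The count was 0 with card1 libraries alone. It was 1 without card1 DMSO 1 h replicate 1, card1 DMBQ 1 h replicate 3 or card1 DMBQ 6 h replicate 2. It was 2 without card1 DMSO 1 h replicate 3, card1 DMSO 6 h replicate 2 or 3, card1 DMBQ 1 h replicate 2 or card1 DMBQ 6 h replicate 1. AT5G07870 was called without each single library, UGT76B1 was lost in 4 of these 12 fits, AT2G36950 in 9 and NAC053 in 10. Among the 135 tested sustained risers, 50 were called higher in card1 at 6 h. In the 6 h minus 1 h difference 6 of them were called lower (4.44%) and 1 higher (0.741%), against 5.13% of tested members called lower. The difference between the gene sets was not tested.

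**Figure D4:**
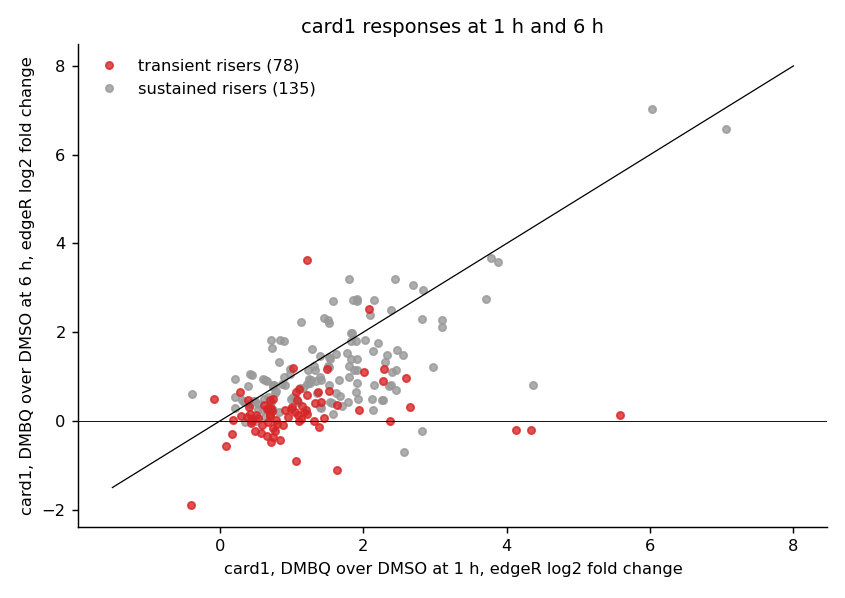
Fitted log2 fold change of DMBQ over DMSO in card1 at 1 h (horizontal) and 6 h (vertical) for the 78 transient risers that passed the count filter (red) and 135 sustained risers (grey), with the line of equal values. The medians at 6 h are 0.15 for the transient and 0.94 for the sustained risers.

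The levels did not all start low and end low. In WT at 1 h, 38 members were up from 0 h by at least 0.35 in DMBQ only, 24 were up in both agents, and 9 were down in DMSO and up in DMBQ. For 8 members the DMBQ level stayed near that of 0 h while the DMSO level fell, and 1, EP1, was down in both. MO1, a monooxygenase, shows in card1 a fall in DMSO with little change in DMBQ: in card1 it had 50.2, 59.6 and 68.8 CPM in DMBQ at 1 h and 58.4, 43.3 and 85.3 CPM in DMBQ at 0 h, against 26.6, 35.9 and 40.1 CPM in DMSO at 1 h and 87.3, 54.7 and 81.7 CPM in DMSO at 0 h. The fall in DMSO passed (-1.12 ± 0.26, adjusted p 0.00130, edgeR's quasi-likelihood test), and the DMBQ change did not (-0.09 ± 0.24, adjusted p 0.862). Without card1 DMSO 0 h replicates 1 and 2 the fall of MO1 in DMSO was -1.26 (adjusted p 0.0180 by edgeR).

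**Figure D5:**
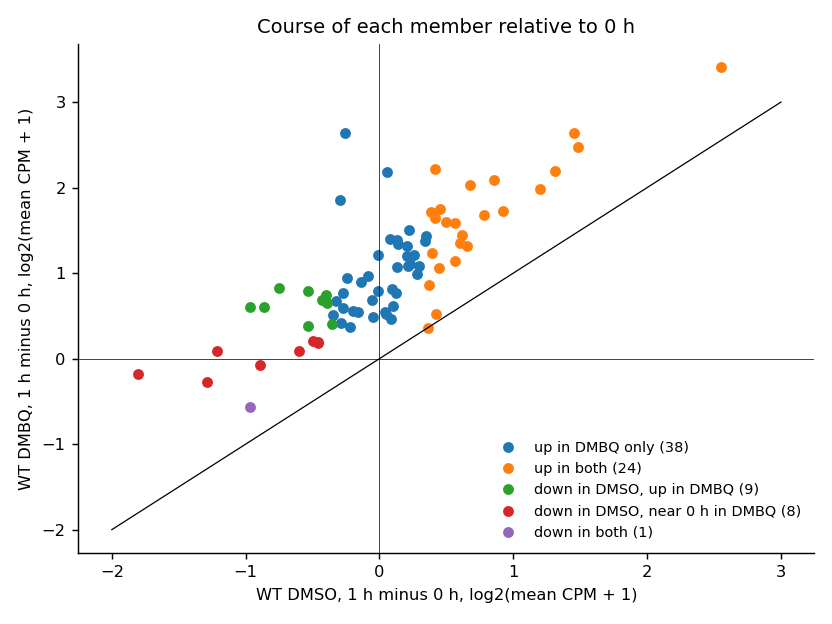
Change from 0 h to 1 h in WT, in log2(mean CPM + 1), in DMSO (horizontal) and DMBQ (vertical) for the 80 members, coloured by whether each change reached 0.35. The line marks equal changes, and 38 members changed upward in DMBQ only.

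Some members also changed over time in DMSO alone, at 1 h in shares near those of all tested genes. In card1, DMSO at 0.5 h against 0 h called 21 members higher and 4 lower (26.9% and 5.13% of tested members), against 11.3% and 9.78% of tested genes. DMSO at 1 h against 0 h called 14 higher and 11 lower (17.9% and 14.1% of tested members), against 13.6% and 13.2% of tested genes. Without card1 DMSO 0 h replicates 1 and 2, the 0.5 h contrast called 8 higher and 2 lower and the 1 h contrast 5 higher and 4 lower. With the DMBQ 0 h libraries as the 0 h level, the 0.5 h contrast called 13 higher and 0 lower and the 1 h contrast 9 higher and 4 lower, and with the replicate block each called 28 in all. The share of all tested genes called was not computed for these alternative fits. Their counts therefore do not show whether members differ from other genes. The total of 25 at 0.5 h was 16 without card1 DMSO 0 h replicate 2 or card1 DMSO 0.5 h replicate 3, and the total of 25 at 1 h (26.9% of tested genes) was 15 without card1 DMSO 0 h replicate 2 and 16 without card1 DMSO 1 h replicate 3. AT5G39670, a calcium-binding EF-hand protein, had 8.54, 11.4 and 10.4 CPM in card1 DMSO at 0.5 h, against 1.15, 0.717 and 0.882 CPM at 0 h (3.48 ± 0.53, adjusted p 8.88e-06, edgeR's quasi-likelihood test). Its difference was 3.50 (adjusted p 0.0108 by edgeR) without card1 DMSO 0 h replicates 1 and 2, and 1.96 (adjusted p 0.00216 by edgeR) with the DMBQ 0 h libraries as the 0 h level. Its DMBQ libraries at 0.5 h, at 9, 11.4 and 15.8 CPM, overlapped those of DMSO, and at 1 h it had 2.24, 1.91 and 4.21 CPM in DMSO. GH3.3, an auxin-conjugating enzyme, had 49.8, 39.4 and 42.7 CPM in card1 DMSO at 1 h, against 13.1, 10.1 and 10 CPM at 0 h, and 56.5, 34.5 and 56.8 CPM in card1 DMBQ at 1 h. In both agents every GH3.3 library of 1 h lay above these DMSO 0 h libraries, with no call between the agents. Replicate 3 of DMSO 0 h, which is outside the pair that trended with length, had 10 CPM.
DMBQ at 1 h against 0 h in card1 called 51 members higher and 1 lower, against 8.52% and 8.51% of tested genes. The member called lower was EP1, also named CRK9, which had 0.997, 1.38 and 0.521 CPM in card1 DMBQ at 1 h, against 2.12, 1.61 and 3.29 CPM at 0 h (-1.29 ± 0.41, adjusted p 0.0222, edgeR's quasi-likelihood test). The call was lost without card1 DMBQ 0 h replicate 3 (-0.92), card1 DMBQ 1 h replicate 1 (-1.29) or card1 DMBQ 1 h replicate 3 (-1.08). EP1 neighbours its relative CRK10, and reads that align to both would have been left out as not unique.

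At 0 h, card1 against WT called 6 members higher and 3 lower (7.69% and 3.85% of tested members), against 10.1% and 7.75% of tested genes. Both member shares were below those of all tested genes. AT2G18193, a protein with a nucleotide-binding loop, had 7.63, 8.48 and 10.5 CPM in card1 DMBQ and 6.63, 5.65 and 9.38 CPM in card1 DMSO at 0 h, against 4.13, 3.73 and 2.75 CPM in WT DMBQ and 3.32, 3.21 and 4.06 CPM in WT DMSO (1.29 ± 0.19, adjusted p 4.05e-06, edgeR's quasi-likelihood test). Every card1 library of AT2G18193 lay above every WT library. WRKY54 ran the other way, at 0.386, 0.429 and 0.215 CPM in card1 DMBQ and 1.02, 0.538 and 0.110 CPM in card1 DMSO, against 1.38, 0.382 and 1.91 CPM in WT DMBQ and 1.48, 1.07 and 1.5 CPM in WT DMSO (-1.43 ± 0.35, adjusted p 0.00310, edgeR's quasi-likelihood test). With the 0 h libraries alone 3 members were called in place of 9, and WRKY54 was not (-1.44, adjusted p 0.0590 by edgeR). Without card1 DMSO 0 h replicates 1 and 2, 4 members were called higher and 4 lower, 6 of these 8 being among the 9, with AT2G18193 at 1.47 (adjusted p 1.42e-05 by edgeR) and WRKY54 at -2.51 (adjusted p 0.00153 by edgeR). The 6 called higher were 2 without WT DMBQ 0 h replicate 2 and 3 without WT DMBQ 0 h replicate 3 or card1 DMSO 0 h replicate 1. The 3 called lower were 5 without card1 DMSO 0 h replicate 1 or 3, and 5 with length correction. For DMBQ against DMSO at 0 h in card1, 1 member each way had an unadjusted p under 0.05 by edgeR. Of the 19839 tested genes, 2164 did so in the higher direction and 1996 in the lower. After adjustment this contrast called 0 members in either direction, against 3.63% of tested genes called higher and 1.82% lower (5.45% in all). It called 5 without card1 DMSO 0 h replicate 3, and 0 without replicates 1 and 2 of that group.

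Other genes of these pathways were counted in card1 from lists chosen with earlier results known. Of the 25 tested detoxification genes, 1, UGT74E2, is a transient and 13 are sustained risers, and 14 were called higher at 1 h (median log2 fold change of the list 1.5) and 8 at 6 h (0.68). Of 13 tested salicylic acid genes, 3 are transient and 2 sustained risers, and 4 were called higher at 1 h (median 0.18) and 2 at 6 h (0.00). Of 8 tested stress NAC genes, 3 are transient and 2 sustained risers, with 3 called higher at 1 h (median 0.70) and 2 at 6 h (0.40). Of 8 tested ZAT and AZF zinc finger genes, ZF2 is a transient and 3 are sustained risers, with 5 called higher at 1 h (median 1.33) and 1 at 6 h (0.79). Of the 9 tested genes of the indole defence list, IGMT1 and IGMT2 were called higher at 1 h; IGMT3 is not on that list. No gene of the jasmonate, ethylene, abscisic acid, heat shock, clock or indole defence lists, as they stand, is a transient riser, and 67 of the 80 members are in none of the 16 lists.

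Of the 80 members, 31 (38.8%) have a single exon, as do 36.0% of the sustained risers and 16.2% of tested genes. The median transcript is 1604.5 bases in members, 1470 in sustained risers and 1754.5 in tested genes. These shares and lengths were not tested. Length is not independent of the rule, because levels relative to each gene's mean fell with transcript length in the WT DMBQ 0.5 h libraries it used. The members lie on chromosomes 1 to 5 as 21, 8, 21, 13 and 17 genes. A gene on the opposite strand overlaps 16 of them, ATAF1 among them, and the counts of those are uncertain where counting ignored strand, a setting that no source gives. AT5G08350 and AT5G23350, GRAM domain genes, are near copies of each other. Reads without a unique alignment were left out, so the counts of both are uncertain.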

How the data were processed

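The deposited table holds raw read counts per gene for 48 libraries. Per the submitters' processing notes, reads were handled with HISAT2 2.1.0 and HTSeq 0.6.1 on the TAIR10 build. No source names the strand setting of the counting. Entries that name no gene were left out of totals and tests: per library, 1.28% to 2.08% of all entries had no feature, 0.655% to 0.735% were ambiguous, 2.64% to 7.25% were not aligned and 6.53% to 13.3% were not unique. Per the labels' protocols, libraries were made with the KAPA mRNA HyperPrep kit.

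From these counts CPM and R were computed with a pseudocount of 1 CPM. Tests used edgeR 4.0.16 in R 4.3.3: TMM factors, filterByExpr with a minimum count of 10, 1 mean per group over all 48 libraries, glmQLFTest and Benjamini-Hochberg adjustment over 19839 genes, called at 0.05. DESeq2 was an alternative, and the pipeline was tested on simulated data. Named genes follow a fixed rule: the 15 members with the largest WT R at 1 h, the called members with the smallest p per contrast, members of each list, the 5 with the highest level per length, genes nearest each limit, CARD1, and the 5 highest and 5 lowest card1 minus WT R at 1 h. Also named, outside this rule, were members with a fitted 6 h minus 1 h difference above 0 in card1. The members, lists, functional groups and motifs were chosen with earlier results of these data known. Functional groups and the motif TTGACG were added after the values were seen. Promoters and names come from RefSeq TAIR10.1, matched by locus for 32835 of 33602 IDs and all 80 members. One promoter sequence is not reported here. Same-numbered libraries of DMBQ and DMSO deviated together in card1 at 0.5 h (correlations 0.139 to 0.277) and 1 h (0.151 to 0.282), and so did those of DMBQ and DMSO at 0 h (0.189 to 0.308), of DMSO at 0.5 h and 0 h (0.134 to 0.208) and of DMSO at 1 h and 0 h (0.126 to 0.193). The replicate block is given beside the calls it changes in these.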

Additional observations from a re-analysis of the deposited data

How the results depend on the processing

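The rule gave 80 genes, 79 with TMM-scaled CPM (78 shared), 109 with a pseudocount of 0.5 (70 shared), 73 after length correction, and 71 to 93 when 1 WT library was left out. For card1 DMBQ against DMSO, the count of members called at 0.5 h was 2 with card1 libraries alone, 7 with the replicate block, 7 with length correction and the replicate block, and 1 to 4 when 1 library was left out. At 1 h it ranged from 22 to 36 when 1 library was left out. There the replicate block added calls of ATAF1, NPR3, SIB1, AT1G71520, AT1G60750, AT1G05575 and AT2G18193, and it ended no call of a named gene in any contrast. At 6 h it was 1 with the replicate block, 1 with length correction and the block, and 0 to 1 when 1 library was left out. For the 6 h minus 1 h response it was 0 with card1 libraries alone, 7 with the replicate block, 8 with length correction and the block, 7 with DESeq2, and 1 to 6 when 1 library was left out. At 0 h it was 0 to 5. For DMSO against 0 h, the count at 0.5 h was 10 without card1 DMSO 0 h replicates 1 and 2, 13 with the DMBQ 0 h libraries as the 0 h level, and 16 to 23 when 1 library was left out, and at 1 h it was 9, 13 and 15 to 23; both of these alternatives were chosen after seeing the data. DMBQ 1 h against 0 h ranged from 44 to 52. For card1 against WT at 0 h it was 3 with 0 h libraries alone, 12 with the replicate block (6 higher and 6 lower; not all same-numbered pairs of libraries deviated together there, lowest correlation 0.0360) and 6 to 10 when 1 library was left out. The 1 h response in card1 turned negative when 1 library was left out for AT5G39670 (range -0.0485 to 0.744), CRK10 (-0.113 to 0.455) and CRK41 (-0.220 to 0.365), the lowest value in each case without card1 DMBQ 1 h replicate 3, and at -0.0152 for CRK10 and -0.177 for CRK41 without card1 DMSO 1 h replicate 1. The cause of these changes was not tested. At 6 h, and for the 6 h minus 1 h difference, same-numbered libraries did not all deviate together (lowest correlations -0.0163 and -0.0231), so there the samples share only a number; NAC032 at 6 h passed with the block (1.17, adjusted p 0.0338 by edgeR). Of the named gene results, 1551 kept their direction and side of the threshold, 208 lost the call, 33 gained it and 5 turned round. Low counts limit genes such as NAC004 and GRX480, whose DMSO libraries hold few reads.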
